A study of Homo sapiens with 6 samples.

Results

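The BCL2 family genes that govern mitochondrial apoptosis were followed in MDA-MB231 cells depleted of LSD1. The 10 members were taken by gene symbol (BCL2, BCL2L1, MCL1, BAX, BAK1, BCL2L11, BID, BBC3, PMAIP1 and BMF) from the 23368 symbols of a gene count table, and 10 of 10 were found and passed the filter on low counts. The list is of symbols, drawn up with earlier results of these data known. MDA-MB231 is an established line of mesenchymal-like, triple-negative breast cancer, grown here in DMEM with 10% FCS. All 6 libraries came from this line after lipid transfection of an siRNA: 2 libraries with a control siRNA (siControl), 2 with siL1 and 2 with siL2, which are different siRNAs against LSD1, the histone demethylase encoded by KDM1A. All groups were transfected, no untransfected group was analysed here, and the labels do not say whether replicates came from separate cultures, so the tests weigh changes against the spread of library pairs that may be technical. Levels are raw counts scaled to the library total (CPM). Changes are log2 fold changes from edgeR's quasi-likelihood test over 13322 genes, called at a Benjamini-Hochberg adjusted p under 0.05.

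Proteins of the BCL2 family decide whether the outer mitochondrial membrane is opened to release cytochrome c. The anti-apoptotic members (BCL2, BCL-XL from BCL2L1, and MCL1) hold the effectors BAX and BAK (from BAK1) in check, and the BH3-only members (BIM from BCL2L11, BID, PUMA from BBC3, NOXA from PMAIP1, and BMF) relieve that restraint or activate the effectors directly. In breast cancer cells the balance among these proteins is known to set how readily drugs kill the cell. Counts per gene do not separate splice forms, so the long and short forms of BCL2L1 and MCL1, which act in opposite ways, were measured together.

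The promoters of 3 members are shown because these genes had the larger changes that ran the same way with both siRNAs, as described below. They are RefSeq windows on GRCh38.p14 of 300 bases, from 250 before to 50 after the gene start, 5′ to 3′ on the gene's strand. Capitals mark matches, on either strand, to the GC box (GGGCGG), the CCAAT box (CCAAT) or the FOXO motif (GTAAACA), which do not overlap one another here; a match is a description and not a shown binding site. BMF lies on chromosome 15 (window chr15:40108830-40109129, minus strand), BAK1 on chromosome 6 (chr6:33580227-33580526, minus strand) and BCL2L11 on chromosome 2 (chr2:111120664-111120963, plus strand).
BMF: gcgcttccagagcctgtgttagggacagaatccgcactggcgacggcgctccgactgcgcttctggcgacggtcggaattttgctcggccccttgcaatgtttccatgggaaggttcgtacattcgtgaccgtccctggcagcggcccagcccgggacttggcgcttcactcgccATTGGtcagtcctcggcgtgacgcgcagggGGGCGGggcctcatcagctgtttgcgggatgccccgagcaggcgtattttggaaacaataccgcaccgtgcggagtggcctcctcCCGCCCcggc
BAK1: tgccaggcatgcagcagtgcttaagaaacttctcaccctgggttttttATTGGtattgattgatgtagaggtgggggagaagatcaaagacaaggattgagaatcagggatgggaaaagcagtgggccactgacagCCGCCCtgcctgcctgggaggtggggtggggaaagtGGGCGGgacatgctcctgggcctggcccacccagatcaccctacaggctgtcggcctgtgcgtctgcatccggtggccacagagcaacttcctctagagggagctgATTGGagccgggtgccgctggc
BCL2L11: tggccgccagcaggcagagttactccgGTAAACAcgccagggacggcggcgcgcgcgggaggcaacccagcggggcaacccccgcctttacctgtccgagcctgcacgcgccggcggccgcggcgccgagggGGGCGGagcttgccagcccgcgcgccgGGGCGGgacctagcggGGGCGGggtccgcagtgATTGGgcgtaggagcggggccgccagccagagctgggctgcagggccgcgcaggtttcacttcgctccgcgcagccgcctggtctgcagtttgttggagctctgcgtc
The BMF window held 2 GC boxes and 1 CCAAT box, that of BAK1 2 and 2, and that of BCL2L11 3 and 1. A GC box was in 70.6% and a CCAAT box in 36.7% of the 9318 windows that matched a tested gene. Of the 10 members, 9 had a window in the table and MCL1 did not; 6 held a GC box and 5 a CCAAT box. The FOXO motif was in the window of BCL2L11 alone among these members, against 2.15% of the tested genes' windows. The TATA box (TATAAA) was found in BCL2L1, the E-box (CACGTG) in BAX and BBC3 and the AP-1 motif (TGANTCA) in BBC3, against 5.33%, 9.99% and 4.56% of the tested genes' windows. The windows differed in CpG content: 42 CpG dinucleotides in that of PMAIP1, 39 in BCL2L11 and 31 in BMF, but 7 in BAK1 and 5 in BBC3, where the median of tested genes was 26.

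The libraries held 22047738 to 26765079 counts with TMM factors from 0.993 to 1.01, and libraries of a group correlated at 0.996 on log2 CPM. The siRNA target KDM1A went from 158 and 165 CPM with siControl to 27.7 and 28.1 (siL1) and 17.4 and 18.1 (siL2), as the labels imply (log2 fold change -2.53 and -3.19, adjusted p = 1.09e-11 and 2.16e-12 by edgeR). The 8 genes listed as expressed by MDA-MB231, such as VIM and CD44, averaged 103 to 3521 CPM, and of 7 luminal or epithelial markers ESR1, PGR and CDH1 had 0 to 3 counts a library. The other 4 averaged 57.0 CPM (ERBB2), 11.5 (EPCAM), 5.35 (FOXA1) and 2.68 (GATA3) in siControl, and the 7 summed to 74.5 to 78.6 CPM there, 72.7 to 78.9 (siL1) and 61.8 to 67.3 (siL2). GATA3 rose (log2 fold change 0.96 for siL1 and 0.46 for siL2) and FOXA1 fell (-0.72 and -1.22), and ERBB2 fell with siL2 (-0.22). Of 6 blood cell markers, 2 (HBB among them) were at 0 in all libraries and the summed level was 0.299 to 0.510 CPM. The 6 fibroblast and endothelial markers summed to 8.25 to 8.30 CPM with siControl, 21.5 to 22.2 (siL1) and 13.2 to 14.9 (siL2), and of the 5 that passed the filter 3 rose with siL1 and 2 with siL2. Of these markers, PDGFRB averaged 0.830 CPM in siControl, 7.19 (siL1) and 3.73 (siL2), and COL1A1 5.91, 12.2 and 8.71. All libraries came from the MDA-MB231 line. The part of the marker genes in the results below was not tested. In bulk RNA a change of cells and a change of RNA per cell cannot be told apart.

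Scaled to exon length, the anti-apoptotic BCL2L1 was the most abundant member and BMF the least. In siControl the means were 219 ± 2.42 CPM per kb of exon for BCL2L1, 112 ± 3.53 for MCL1, 38.5 ± 0.55 for BAX, 26.8 ± 1.27 for PMAIP1, 17.4 ± 0.888 for BAK1 and 11.6 ± 0.481 for BID (SD, n = 2 each). The lower levels were 4.09 ± 0.279 CPM per kb for BCL2L11, 1.97 ± 0.303 for BBC3, 1.35 ± 0.0133 for BCL2 and 0.200 ± 0.0243 for BMF (SD, n = 2 each). The 2 libraries of neighbouring members did not overlap in siControl or siL2, and the order of the means on this scale was the same in the 3 groups. With siL1, BAX (35.7 ± 0.661) and PMAIP1 (34.2 ± 2.59 CPM per kb; SD, n = 2 each) overlapped. The lengths are the union of exons in GENCODE 29 on GRCh38, whereas reads were counted on hg19. With the median transcript length in their place the top 4 places were unchanged, but the order of BAK1, BCL2L11 and BID changed. That order also differed between the groups. In siControl BCL2L11 (30.9 CPM per kb) and BID (27.3) stood above BAK1 (17.98). With siL1 BID (26.6) stood above BAK1 (23.96), and BCL2L11 (21.4) below it. With siL2 BAK1 (22.65) stood above BCL2L11 (20.8) and BID (20.5). The lowest places changed as well: BCL2, BBC3 and BMF then had 3.87, 3.81 and 1.68 CPM per kb in siControl, 3.64, 3.66 and 3.02 (siL1), and 3.34, 4.32 and 4.84 (siL2).

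**Figure D1:**
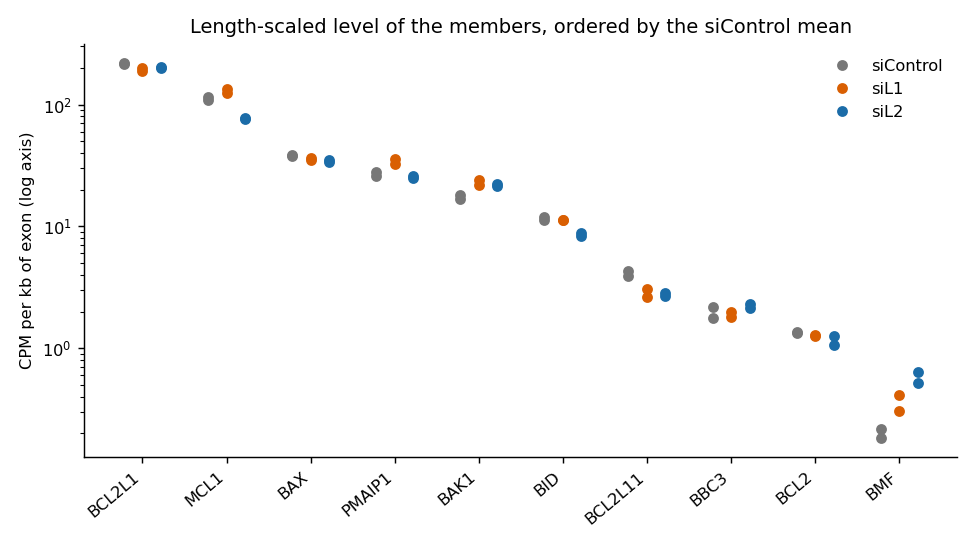
Level per length of the 10 members (y axis, CPM per kb of exon, log scale), ordered along the x axis by their siControl mean; each point is a library and colours give the siRNA group. BCL2L1 is highest near 219 and BMF lowest at 0.200 CPM per kb in siControl.

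Of the 10 members, 4 rose and 2 fell with siL1, where 50.4% of all genes tested were called, 24.7% higher and 25.7% lower. With siL2, 2 rose and 5 fell, where 45.8% of all genes were called, 22.6% higher and 23.3% lower. With 10 members these counts are a description, and nothing about the family as a group is read from them. Both comparisons use the same 2 control libraries. The median log2 fold change of the members was -0.05 with siL1 and -0.14 with siL2, beside -0.01 and -0.00 for all genes tested. Their median absolute log2 change was 0.19 with siL1 and 0.27 with siL2, beside 0.24 and 0.21 for all genes. With siL1 MCL1, BAK1, PMAIP1 and BMF rose, and BCL2L1 and BCL2L11 fell, so that each direction held pro- and anti-apoptotic members. With siL2 the risers were BAK1 and BMF, both pro-apoptotic. The genes that fell with siL2 were the anti-apoptotic BCL2L1 and MCL1 and the pro-apoptotic BAX, BCL2L11 and BID. Standard errors ran from 0.0347 for BCL2L1, with 15334 to 17935 counts a library, to 0.266 for BMF, with 22 to 85 counts a library, so small changes could be called in the first and not in the second.

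**Figure D2:**
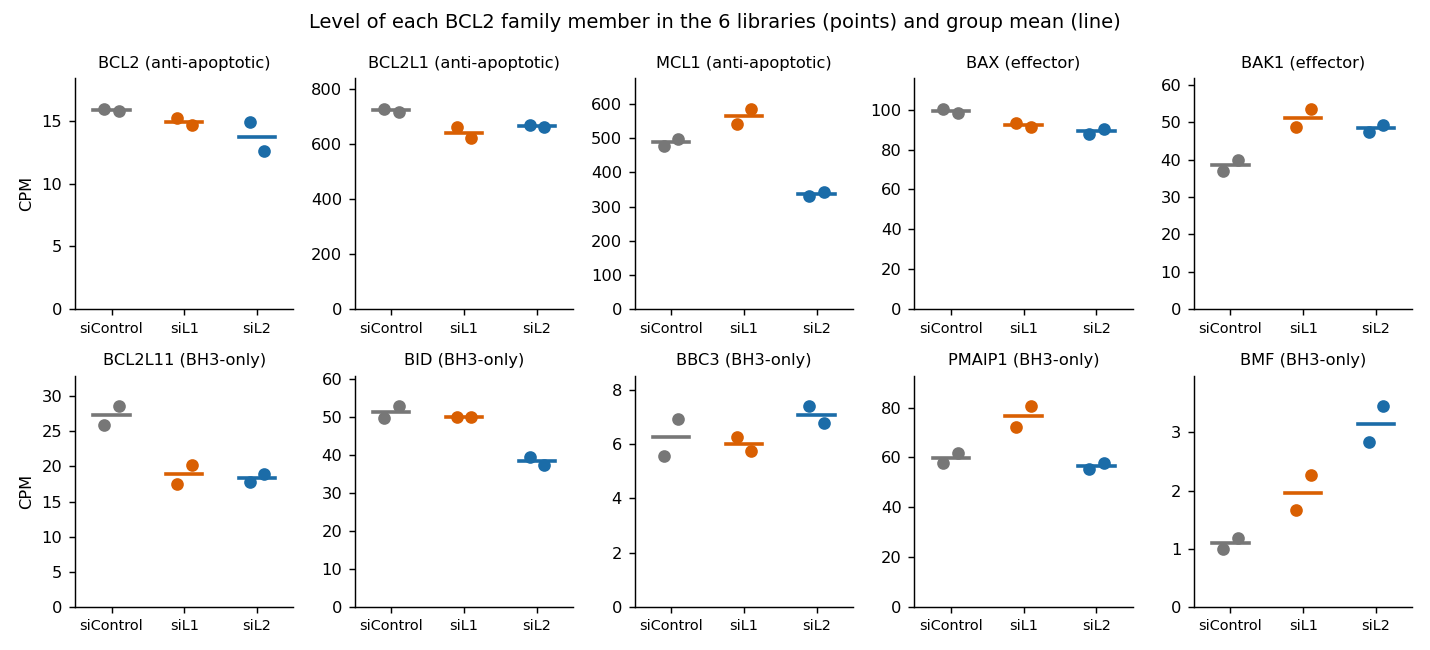
CPM of each member (y axes from 0) in the 6 libraries, grouped by siRNA on the x axis; points are libraries and lines group means. MCL1 is highest with siL1 and lowest with siL2, BMF is higher and BCL2L11 lower with both siRNAs, and BBC3 groups overlap with siControl.

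MCL1, a short-lived anti-apoptotic protein on which many breast cancer cells depend, moved in opposite directions with the 2 siRNAs. The siControl libraries had 478 and 499 CPM, those of siL1 541 and 587, and those of siL2 331 and 341. The 3 groups did not overlap, with the siL1 libraries highest and the siL2 libraries lowest. MCL1 rose 1.16-fold with siL1 (95% interval 1.08 to 1.24; log2 fold change 0.21, SE 0.0445, adjusted p = 0.00153 by edgeR). With siL2 it fell to 0.686 of the control level (interval 0.642 to 0.734; log2 fold change -0.54, SE 0.0450, adjusted p = 8.93e-07 by edgeR). The difference of siL2 from siL1 was -0.75 on the log2 scale (SE 0.0450, adjusted p = 5.69e-08 by edgeR), and 7.87% of all genes tested differed more between the siRNAs. The authors' deposited table gave ratios of 1.16 and 0.687 for MCL1.

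BCL2L1, whose main product BCL-XL is an anti-apoptotic protein of the outer mitochondrial membrane, was slightly lower with both siRNAs. Its levels were 730 and 719 CPM in siControl, 661 and 622 (siL1), and 670 and 663 (siL2). Each siRNA group lay below the controls without overlap. The log2 fold change was -0.17 for siL1 (SE 0.0347, adjusted p = 0.00123 by edgeR) and -0.12 for siL2 (SE 0.0347, adjusted p = 0.0105). The siL2 call ended without siControl replicate 1 (adjusted p = 0.0547 by edgeR) or siL2 replicate 2 (0.0565), and the authors' deposited adjusted p was 0.0761. The log2 difference of siL2 from siL1 was 0.05 (interval -0.03 to 0.12, adjusted p = 0.292 by edgeR). BCL2 itself, the founding anti-apoptotic member, had 16.0 and 15.8 CPM in siControl, 15.2 and 14.7 (siL1), and 14.9 and 12.6 (siL2). The siRNA libraries were the lower ones, but BCL2 did not pass the test, with log2 fold changes of -0.08 (interval -0.30 to 0.13, adjusted p = 0.504 by edgeR) and -0.21 (interval -0.42 to 0.00, adjusted p = 0.0970). Without siL2 replicate 1 the siL2 value was -0.34 and passed (adjusted p = 0.0340 by edgeR), and without siL2 replicate 2 it was -0.10 (adjusted p = 0.530).

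The effectors BAX and BAK1, whose proteins form the pores of the outer membrane, differed in direction. BAK1 had 37.0 and 39.8 CPM in siControl, 48.7 and 53.6 (siL1), and 47.4 and 49.4 (siL2). Every LSD1 siRNA library was above both controls, and the siL1 and siL2 libraries overlapped. BAK1 rose 1.34-fold with siL1 (interval 1.21 to 1.48; log2 fold change 0.42, SE 0.0680, adjusted p = 0.000225 by edgeR) and 1.26-fold with siL2 (interval 1.13 to 1.39; 0.33, SE 0.0679, adjusted p = 0.00155). The siRNAs differed for BAK1 by -0.09 on the log2 scale (interval -0.23 to 0.05, adjusted p = 0.279 by edgeR). BAX had 101 and 98.6 CPM in siControl, 93.5 and 91.1 (siL1), and 87.7 and 90.5 (siL2), so that the siRNA libraries were again apart from the controls but lower. BAX fell with siL2 (log2 fold change -0.16, SE 0.0453, adjusted p = 0.00953 by edgeR) and had -0.10 with siL1 (interval -0.20 to -0.01, adjusted p = 0.0718). The siL2 call ended without siControl replicate 1 (adjusted p = 0.0568 by edgeR) or siL2 replicate 1 (0.0897), and the authors' deposited adjusted p was 0.0608. The pore-forming relative BOK, named after its values were seen, fell with siL1 (-0.26 on the log2 scale, adjusted p = 0.00237 by edgeR) and had 0.07 with siL2 (adjusted p = 0.332).

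**Figure D3:**
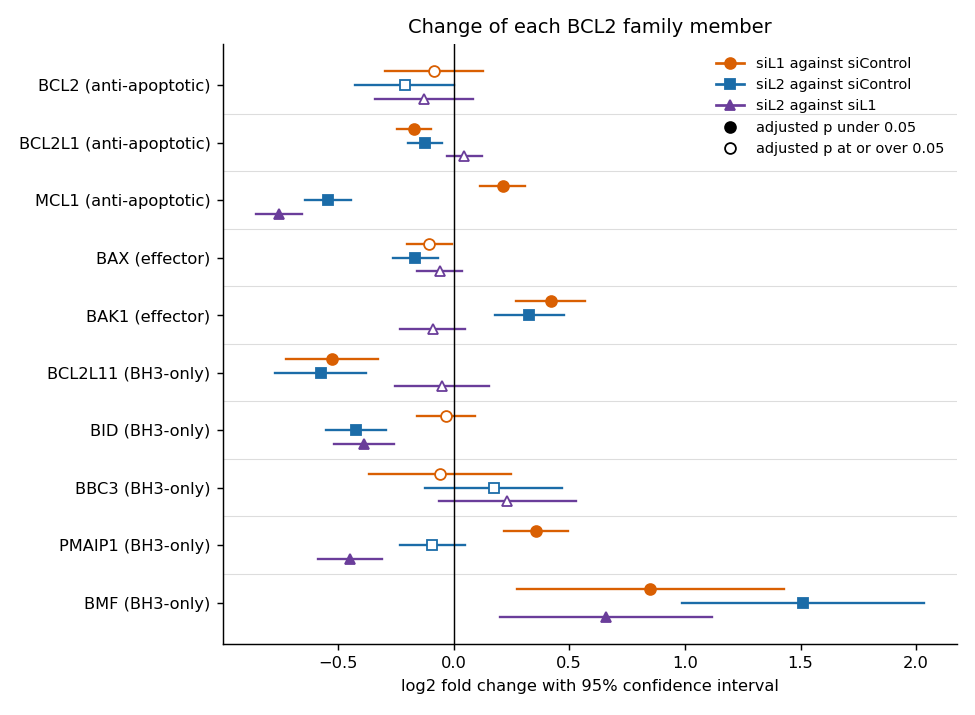
Log2 fold change of each member (x axis) for siL1 against siControl, siL2 against siControl and siL2 against siL1; symbols are estimates, bars 95% confidence intervals, and filled symbols have an adjusted p under 0.05. BMF has the largest values (0.85 and 1.51) and the widest intervals, and the MCL1 estimates lie on opposite sides of 0.

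Among the BH3-only genes, BMF rose and BCL2L11 fell with both siRNAs. BMF, whose product is tethered to the cytoskeleton until released, was rare: 22 and 28 counts in the siControl libraries, 39 and 56 with siL1, and 76 and 85 with siL2. In CPM these were 0.998 and 1.19, 1.66 and 2.27, and 2.84 and 3.45. The 3 groups did not overlap, siL2 being highest, and each library was well above the 0.112 to 0.136 CPM that a count of 3 represents. BMF rose 1.80-fold with siL1 (interval 1.21 to 2.69; log2 fold change 0.85, SE 0.266, adjusted p = 0.0175 by edgeR) and 2.85-fold with siL2 (interval 1.98 to 4.10; 1.51, SE 0.242, adjusted p = 0.000231). Only 0.998% of all genes tested changed more with siL2, and 7.21% with siL1. The siL1 call ended with DESeq2 (adjusted p = 0.0790), without siControl replicate 1 (0.0966 by edgeR) and without siL1 replicate 2 (0.162), and the authors' deposited adjusted p was 0.0905. BMF was higher with siL2 than with siL1 by 0.66 on the log2 scale (SE 0.211, adjusted p = 0.0213 by edgeR), a call that ended with DESeq2 (0.152), without siL1 replicate 1 (0.173 by edgeR) and without siL2 replicate 2 (0.140).

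BCL2L11 encodes BIM, which binds every anti-apoptotic member and can activate BAX and BAK. It had 25.9 and 28.6 CPM in siControl, 17.5 and 20.2 (siL1), and 17.8 and 19.0 (siL2). All siRNA libraries were below both controls, and the siL1 and siL2 libraries overlapped. BCL2L11 fell to 0.695 of the control level with siL1 (interval 0.606 to 0.796; log2 fold change -0.53, SE 0.0911, adjusted p = 0.000374 by edgeR) and to 0.671 with siL2 (interval 0.586 to 0.769; -0.58, SE 0.0907, adjusted p = 0.000207). The difference between the siRNAs was -0.05 on the log2 scale (interval -0.25 to 0.15, adjusted p = 0.695 by edgeR). In GENCODE 29 exons of the antisense gene MIR4435-2HG overlap those of BCL2L11, and the counts are not stated to use strand. That gene, listed in the table as LOC541471 with 283 to 408 counts, had log2 fold changes of -0.04 (adjusted p = 0.798 by edgeR) and 0.17 (adjusted p = 0.206). Opposite-strand genes also overlap exons of BMF (BMF-AS1), BAK1 (GGNBP1, at most 1 count), BCL2L1 (ABALON) and BBC3 (MIR3190, at most 1 count), and on the same strand MIR3191 (0 counts) overlaps BBC3 and ADAMTSL4-AS1 overlaps MCL1.

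PMAIP1 and BID each changed with a single siRNA. PMAIP1, which encodes NOXA, the BH3-only protein that targets MCL1 for destruction, had 57.9 and 61.9 CPM in siControl, 72.4 and 80.5 (siL1), and 55.3 and 57.6 (siL2). The siL1 libraries were above all others and the siL2 libraries just below the controls. PMAIP1 rose 1.28-fold with siL1 (interval 1.16 to 1.41; log2 fold change 0.36, SE 0.0636, adjusted p = 0.000470 by edgeR) and had -0.09 with siL2 (interval -0.23 to 0.05, adjusted p = 0.269). The difference of siL2 from siL1 was -0.45 (SE 0.0633, adjusted p = 8.95e-05 by edgeR), in the same direction as that of MCL1. BID, which links death receptors to mitochondria once cut by caspase-8, had 49.8 and 52.9 CPM in siControl, 50.02 and 50.06 (siL1), and 39.6 and 37.4 (siL2). Its siL1 libraries lay between the controls, while both siL2 libraries were lower. BID fell to 0.747 of the control with siL2 (interval 0.683 to 0.817; log2 fold change -0.42, SE 0.0596, adjusted p = 8.85e-05 by edgeR) and had -0.03 with siL1 (interval -0.16 to 0.09, adjusted p = 0.664). The log2 difference of siL2 from siL1 was -0.39 for BID (SE 0.0595, adjusted p = 0.000173 by edgeR). BBC3, which encodes PUMA, a strong binder of the anti-apoptotic members, had 5.58 and 6.94 CPM in siControl, 6.25 and 5.76 (siL1), and 7.40 and 6.78 (siL2). The groups overlapped the controls, and the log2 fold changes were -0.06 (interval -0.37 to 0.25, adjusted p = 0.754 by edgeR) and 0.17 (interval -0.12 to 0.47, adjusted p = 0.328).

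Between the siRNAs, 4 of 10 members differed, 1 higher and 3 lower with siL2 than with siL1, where 46.8% of all genes tested differed, 23.2% higher and 23.7% lower. The members that differed were MCL1, PMAIP1, BID and BMF. For BCL2, BCL2L1, BAX, BAK1, BCL2L11 and BBC3 the test did not separate siL2 from siL1, which does not show that the siRNAs acted alike. The authors' deposited table had an adjusted p under 0.05 for 5 members with each siRNA, which were among those called here, and its ratios had the direction found here for 10 of 10 members in each comparison.

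Ratios of counts within a library do not depend on how libraries are scaled, and they are read here across libraries and not as relative amounts of the proteins. Counts of BAX per count of BCL2 were 6.28 and 6.24 in siControl, 6.14 and 6.20 with siL1, and 5.88 and 7.19 with siL2. The siL1 pair lay just below the controls and the siL2 pair on either side of them. BAK1 per MCL1 was 0.0775 and 0.0797 in siControl, 0.0902 and 0.0913 with siL1, and 0.143 and 0.145 with siL2, highest with siL2, where MCL1 fell and BAK1 rose. BAK1 per BCL2L1 was 0.0507 and 0.0554 in siControl, 0.0737 and 0.0862 with siL1, and 0.0708 and 0.0744 with siL2. Both siRNA groups were above the controls, as they were for BMF per MCL1. BCL2L11 per BCL2L1 was lower with each siRNA: 0.0355 and 0.0398 in siControl, 0.0265 and 0.0325 (siL1), and 0.0265 and 0.0286 (siL2). BAX per BCL2L1 was 0.138 and 0.137 in siControl, 0.142 and 0.146 with siL1 (higher), and 0.131 and 0.136 with siL2 (lower). PMAIP1 per MCL1 was 0.121 and 0.124 in siControl, 0.134 and 0.137 with siL1, and 0.167 and 0.169 with siL2. That ratio was higher with each siRNA. With siL1 both genes rose (log2 fold change 0.36 for PMAIP1 and 0.21 for MCL1), and with siL2 MCL1 fell. The ratio of the 2 large anti-apoptotic transcripts, MCL1 per BCL2L1, was 0.654 and 0.695 in siControl, 0.818 and 0.944 with siL1, and 0.494 and 0.515 with siL2. BMF per BCL2L11 was 0.0385 and 0.0415 in siControl, 0.0947 and 0.112 with siL1, and 0.160 and 0.182 with siL2. BCL2L11 per MCL1 was 0.0543 and 0.0572 in siControl, 0.0324 and 0.0344 with siL1, and 0.0537 and 0.0555 with siL2; it was lower with siL1 and overlapped the controls with siL2, where both genes fell. The 10 members summed to 1502 and 1524 CPM in siControl, 1507 and 1528 (siL1), and 1274 and 1281 (siL2). BCL2L1 made up 40.7% to 52.6% and MCL1 26.0% to 38.4% of the members' counts.

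**Figure D4:**
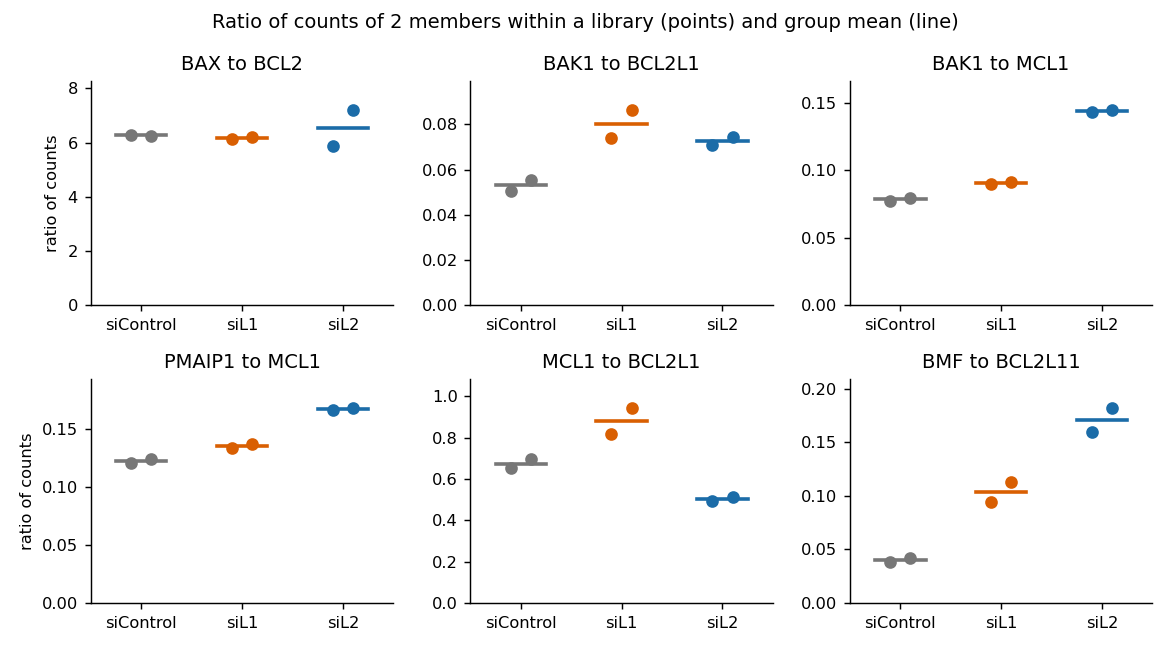
Ratio of the counts of 2 members within a library (y axes from 0), by siRNA group on the x axis; points are libraries and lines group means. BAX to BCL2 stays between 5.88 and 7.19 in all libraries, while BAK1 to MCL1 reaches 0.143 and 0.145 with siL2.

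Stretches of 29 bases from the 3′ UTRs of 4 members are shown because siRNAs can also lower transcripts through short matches there. The 4 heptamers searched were GTTACAA, then ACAGAGC, and the related pair of TACATTT and ACATTTA. They had been singled out by an earlier scan of these same counts. Matches in the members, and the medians over all genes given next, are therefore no independent evidence. The 1088 tested genes with GTTACAA had a median log2 fold change of -0.12 with siL2 and 0.03 with siL1, beside 0.01 and -0.01 for genes without it. For ACAGAGC the medians with siL1 were -0.02 with and 0.00 without it, and for TACATTT or ACATTTA they were 0.04 and -0.03 with siL1 and 0.05 and -0.03 with siL2. Each stretch is from the longest annotated 3′ UTR in GENCODE 29, 5′ to 3′, with GTTACAA or ACAGAGC in capitals. The PMAIP1 stretch opens with its TACATTT match, left in lower case.
MCL1: cctgtgtaaaaGTTACAAgtaatagaact
BCL2L11: caaagcccacgGTTACAAgcagtggtagg
PMAIP1: tacatttttgaGTTACAAgagtcttataa
BMF, the first of 2: ggtcctgaggtACAGAGCcactgccacca
GTTACAA was found in MCL1, which fell with siL2 and rose with siL1, in BCL2L11, which fell with both, and in PMAIP1, which did not pass with siL2. It was in 9.56% of the 11378 tested genes that had a 3′ UTR of at least 50 bases. BCL2L1, BID and BAX, which also fell with siL2, held none in 1497, 1442 and 701 bases, and BCL2 held none in 5279. The UTRs that held it had 2824 (MCL1), 4480 (BCL2L11) and 1553 bases (PMAIP1), where the median of those genes was 1423. ACAGAGC was found only in BMF among the members, 2 times in 3897 bases, and BMF rose with siL1; 17.9% of the genes held it. TACATTT was found in PMAIP1 and ACATTTA in none of the 10 members, against 27.1% and 22.4% of the genes, and BAK1 and BMF, which rose with both siRNAs, held neither. The sequences of the siRNAs were not used here, and any part of such matches in the changes was not tested.

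**Figure D5:**
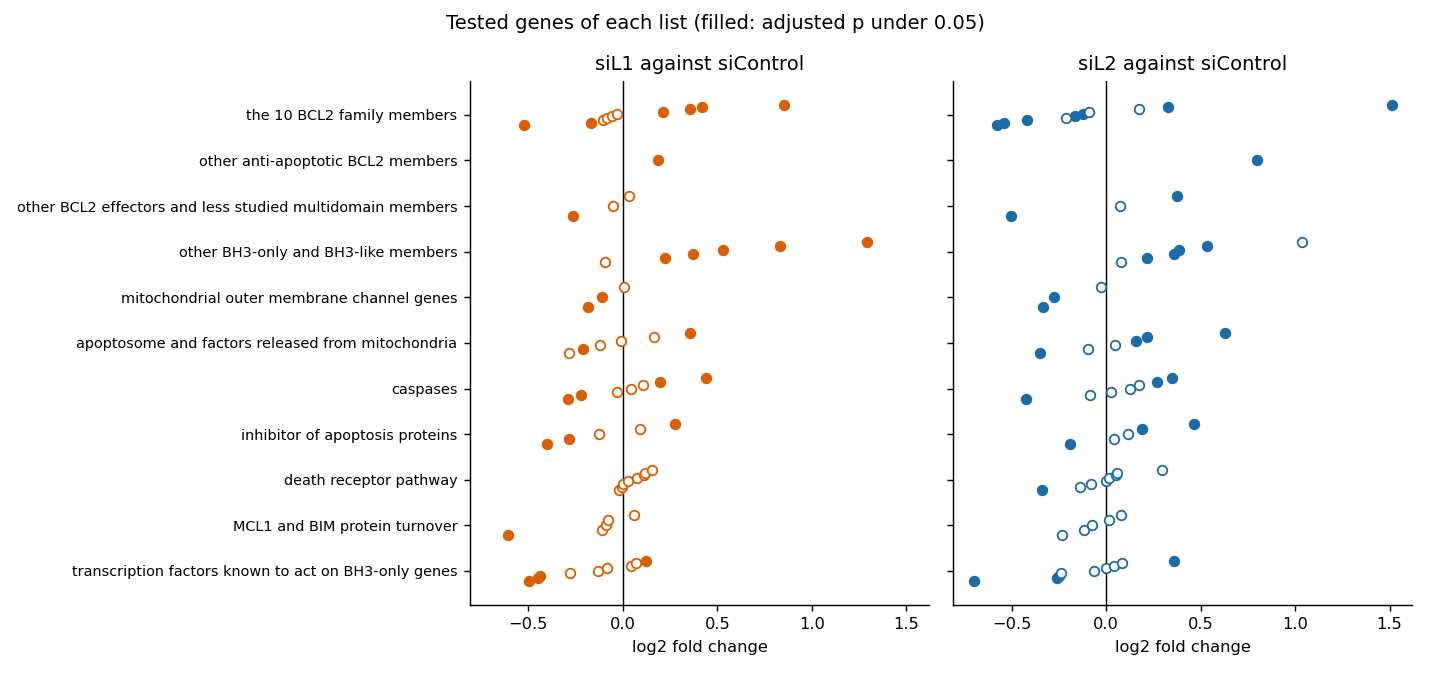
Log2 fold change (x axis) of each tested gene in the 10 members and in 10 lists of related apoptosis genes (rows), for siL1 (left) and siL2 (right) against siControl; filled points have an adjusted p under 0.05. The BH3-only relatives lie mostly above 0, while the death receptor genes lie near 0 with 1 gene called with siL2.

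Other genes of the pathway were read from 10 lists with 61 genes, of which 53 passed the count filter. With siL1, 11 rose and 12 fell, and with siL2, 14 rose and 10 fell, so that 23 and 24 of 53 were called beside the 50.4% and 45.8% of all genes. The other BH3-only and BH3-like genes were mostly higher. Of 6 tested, 5 rose and 0 fell with siL1 (median log2 fold change 0.45), and 4 rose and 0 fell with siL2 (median 0.37). Of all genes tested, 24.7% were called higher with siL1 and 22.6% with siL2, and the counts in this short list are a description. The mitophagy receptor BNIP3L rose by 0.83 with siL1 and 0.53 with siL2 on the log2 scale (adjusted p = 1.53e-08 and 8.9e-07 by edgeR), BAD by 0.37 and 0.22 (adjusted p = 0.000108 and 0.00574) and the BAX-associated MOAP1 by 0.22 and 0.36 (adjusted p = 0.00743 and 0.000278). BNIP3, BIK and BECN1, named after their values were seen, made up the rest, and DESeq2 and limma-voom also called 0 of the list lower. DESeq2 called 4 of them higher with siL1. BNIP3 rose with siL1 (0.53, adjusted p = 5.89e-07 by edgeR), and the autophagy gene BECN1 rose with siL2 (0.39, adjusted p = 1.2e-05). With siL1 BECN1 had -0.09 (adjusted p = 0.0972 by edgeR), and the fit with the replicate number as a block called it lower (0.0237). The rare BIK, at under 1 CPM, had 1.29 with siL1 (adjusted p = 0.0176 by edgeR), but DESeq2 did not call it (adjusted p = 0.135) and the authors' deposited adjusted p was 0.145. The BIK call also ended without siControl replicate 1 (adjusted p = 0.149 by edgeR), siL1 replicate 1 (0.0593) or siL1 replicate 2 (0.0642), that of MOAP1 with siL1 without siL1 replicate 1 (0.0668), and that of BAD with siL2 without siControl replicate 2 (0.0528).

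BCL2L2, which encodes the anti-apoptotic BCL-W, had 36.4 and 39.5 CPM in siControl, 44.2 and 41.9 (siL1) and 65.3 and 67.1 (siL2). The 3 groups did not overlap. It rose by 0.19 (adjusted p = 0.0245 by edgeR) and 0.80 (adjusted p = 3.84e-07) on the log2 scale, so that with siL2 it moved against MCL1. The siL1 call ended with DESeq2 (adjusted p = 0.0739) and without siControl replicate 1 (adjusted p = 0.191 by edgeR) or siL1 replicate 1 (0.138), and the authors' deposited adjusted p was 0.0968. The anti-apoptotic BCL2A1 and BCL2L10 had at most 1 count a library and the BH3-only HRK at most 1. Among the less studied relatives, BCL2L12 fell with siL2 (log2 fold change -0.50, adjusted p = 7.54e-06 by edgeR) and had 0.03 with siL1 (adjusted p = 0.618).

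At the outer mitochondrial membrane, 2 of 3 channel genes fell with each siRNA and 0 rose. Those that fell were VDAC2 (log2 fold change -0.18 and -0.34) and VDAC1 (-0.11 and -0.28). With siL1 DESeq2 called 0 of them, and the authors' deposited adjusted p was 0.121 for VDAC2 and 0.184 for VDAC1. The siL1 calls ended without siL1 replicate 1 (adjusted p = 0.212 and 0.208 by edgeR), that of VDAC2 also without siControl replicate 2 (0.223) and that of VDAC1 without siControl replicate 1 (0.125) or fitted on the 2 groups alone (0.0597). Of all genes tested, 24.7% rose and 25.7% fell with siL1, and 22.6% and 23.3% with siL2, so the counts in these short lists are given as a description. Of 6 genes for the apoptosome and released factors, 1 rose and 1 fell with siL1, and 3 rose and 1 fell with siL2. The protease HTRA2 rose by 0.35 and 0.63, whereas the flavoprotein AIFM1 fell (-0.21 and -0.35). DESeq2 did not call AIFM1 with siL1 (adjusted p = 0.0594), nor did edgeR without siControl replicate 2 (0.0584) or siL1 replicate 2 (0.0738), and the authors' deposited adjusted p was 0.0654. Of 7 caspases, 2 rose and 2 fell with siL1, and 2 rose and 1 fell with siL2. Of 5 inhibitor of apoptosis genes, 1 rose and 2 fell with siL1, and 2 rose and 1 fell with siL2. The ubiquitin ligase BIRC2 rose by 0.28 and 0.46, and BIRC5, the mitotic survivin, fell (-0.29 and -0.19), the latter not called without siControl replicate 2 (adjusted p = 0.0612 by edgeR) or siL2 replicate 1 (0.0662). Few death receptor genes passed: of 8 tested, edgeR called 0 with siL1 (2 had an unadjusted p under 0.05, and DESeq2 and limma-voom called 0) and 1 with siL2, FAS (-0.34, adjusted p = 0.0411 by edgeR). DESeq2 did not call FAS (adjusted p = 0.193) and the authors' deposited adjusted p was 0.176. The call also ended in edgeR on the 2 groups alone (adjusted p = 0.0522) and without siControl replicate 1 (0.239), siL2 replicate 1 (0.0902) or siL2 replicate 2 (0.144).

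Upstream, of 9 tested transcription factors known to act on BH3-only genes, 1 rose and 3 fell with each siRNA, but not the same genes. Of all genes tested, 24.7% rose and 25.7% fell with siL1, and 22.6% and 23.3% with siL2. E2F1, named after its values were seen, fell with siL1 (-0.45 on the log2 scale, adjusted p = 5.38e-05 by edgeR). It rose with siL2 (0.36, adjusted p = 0.000273 by edgeR). MYC, a growth regulator that also primes cells for apoptosis, fell by 0.44 with siL1 and by 0.70 with siL2 on the log2 scale (adjusted p = 6.1e-05 and 1.32e-06 by edgeR). Of 5 genes for the turnover of MCL1 and BIM protein, 0 rose and 1 fell with siL1, and edgeR called 0 with siL2, where 2 were lower at an unadjusted p under 0.05 and DESeq2 and limma-voom called 0. The ubiquitin ligase gene FBXW7, which marks MCL1 for destruction, fell with siL1 (-0.61, adjusted p = 0.000463 by edgeR) and had -0.23 with siL2 (adjusted p = 0.0879), which passed without siL1 replicate 1 (0.0285) or siL1 replicate 2 (0.0300).

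BMF was the member with the largest mean change over the siRNAs. Among 10447 tested genes averaging at least 5 CPM, those whose log2 CPM, centred over the 6 libraries, lay nearest to that of BMF (Euclidean distance) were GABARAPL1 (0.370), CSF1 (0.381), DENND1B (0.396), EMP1 (0.400) and TNC (0.416). GABARAPL1, which encodes an autophagosome protein, had log2 fold changes of 0.85 with siL1 and 1.35 with siL2, and CSF1, a macrophage growth factor gene, 0.59 and 1.29. With 3 groups of 2 libraries such a likeness rests on few values and is given as a description.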

How the data were processed

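Per the submitters' processing notes, the authors used TopHat 1.3.3, HTSeq and DESeq with the build hg19; options, annotation and strand setting are not given in the sources used here. The deposited table held raw counts per gene symbol and, from the authors' own comparisons, a linear fold ratio (siRNA over control) and an adjusted p-value, per the file headers. Counts were analysed in R 4.3.3 with edgeR 4.0.16: filterByExpr by group (13322 genes kept, 10046 left out), TMM, and glmQLFit on 6 libraries by group alone (3 residual degrees of freedom). glmQLFTest was two-sided with Benjamini-Hochberg adjustment over all genes tested, and was tested on simulated data. CPM uses total counts; SDs are over 2 libraries, SEs and 95% intervals are of the log2 fold change, from the F statistic. A count of 3 is the limit that a count of 0 allows, for counting error only. Alternatives used DESeq2 1.42.0 (its size factors or its test), limma-voom (limma 3.58.1), other filters, the replicate number as a block, only the groups compared, or 1 library fewer. Named genes were KDM1A, the 10 members and, per list, up to 4 genes called in 1 direction with both siRNAs at a mean of at least 1 CPM, by the smaller of their changes, or else the called gene with the largest change; exceptions are said, and some genes the rule names are not reported here. For the member with the largest mean change, the 5 nearest genes were named. Members and lists were chosen with earlier results of these data known. Exons, 3′ UTRs (GENCODE 29, GRCh38) and promoters (RefSeq, GRCh38.p14) were joined by symbol in Python 3.11.15 with pandas 2.3.3; figures used matplotlib 3.10.9.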

Additional observations from a re-analysis of the deposited data

Results flagged for a closer look

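The levels of 4 members differed between the 2 siRNAs in the direct test of siL2 against siL1. MCL1 had a log2 difference of -0.75 (adjusted p = 5.69e-08 by edgeR), lower in both siL2 libraries than in both siL1 libraries. PMAIP1 had -0.45 (adjusted p = 8.95e-05 by edgeR) and BID -0.39 (adjusted p = 0.000173), also lower in both siL2 libraries. BMF had 0.66 (adjusted p = 0.0213 by edgeR), higher in both siL2 libraries. The BMF call ended with DESeq2, without siL1 replicate 1 and without siL2 replicate 2. Groups of 2 libraries were not searched for outlying samples.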

How the results depend on the processing

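Each of the 30 member fold changes (10 members, 3 comparisons) was recomputed under 13 alternatives, and 21 kept their direction and side of the threshold under all of them; the counts of called members and of called genes stayed within 1.5 times of those reported. Leaving out 1 library, the called members numbered 5 to 6 with siL1, 5 to 7 with siL2 and 3 to 4 between the siRNAs. The values that changed sign were all uncalled: without siControl replicate 2 the siL1 log2 fold changes of BID (0.0066) and BBC3 (0.11), and the BCL2L11 difference of siL2 from siL1 without siL1 replicate 2 (0.065) and without siL2 replicate 1 (0.0026). Over all libraries left out in turn these ran from -0.076 to 0.0066 for BID, from -0.21 to 0.11 for BBC3 and from -0.15 to 0.065 for BCL2L11. The lone library left in such a group is assumed to vary like the others. Same-numbered libraries deviated together only weakly (correlations of 0.133 to 0.198), and the labels do not say that a number marks a shared culture. With the replicate number as a block, the called genes numbered 8036 with siL1, 7610 with siL2 and 7700 between the siRNAs, in place of 6712, 6106 and 6240, and the called members 7, 8 and 4: BAX then passed with siL1 (log2 fold change -0.10, adjusted p = 0.0187 by edgeR) and BCL2 with siL2 (-0.21, adjusted p = 0.0255), and no other member's call changed. DESeq2 called 5 members with siL1, 7 with siL2 and 3 between the siRNAs. With the median transcript length in place of exon length, the level per length moved for 9 of 10 members. Depth limited BMF most, at 22 to 85 counts a library.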
